A study of Rattus norvegicus with 8 samples.

Results

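The lining cells of blood vessels were followed in the Achilles tendon through 10 genes named for them: the identity genes Pecam1, Cdh5, Vwf and Emcn, the vasoactive genes Nos3 and Edn1, and the leukocyte adhesion genes Sele, Selp, Icam1 and Vcam1. They were picked by gene symbol, 9 of the 10 had a row among the 15590 genes of the deposited table, and all 9 were among the 13863 genes tested. Pecam1 is not analysed here. The study sequenced RNA of the right Achilles tendon from wild-type male Sprague-Dawley rats, 8 to 10 weeks old, with 4 libraries in each group. The rats of the 0 h p.r. (post-running) group ran uphill on a treadmill for 1 h, urged on by an air stream and by mild electric stimulation, and were killed at once. The naïve controls (NC) did not run, and the study's methods say that cage controls of this running experiment were killed together with runners that had rested for 12 h. Hour of death, handling and running therefore cannot be told apart in these groups.

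Endothelial cells line every blood vessel and are joined by VE-cadherin, the product of Cdh5. At rest they hold leukocytes off. When activated they show selectins, on which leukocytes tether and roll, and then ICAM-1 and VCAM-1, to which leukocyte integrins bind firmly before the cells cross the wall. P-selectin (Selp) is also stored ready-made, together with von Willebrand factor (Vwf), in Weibel-Palade bodies, while E-selectin (Sele) is made anew. Tendon is thinly vascularised, and its vessels run mainly in the sheaths and the tissue between the fascicles.

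None of the 3 identity genes measured passed the test, whereas the transcripts of 3 of the 4 adhesion molecules rose: Selp 3.69-fold, Sele 2.64-fold and Icam1 2.099-fold. A gene was counted as changed when its fold was at least 2 and its adjusted p was under 0.05 (limma on log2(FPKM + 0.5), two-sided, Benjamini-Hochberg over all 13863 genes). Of the 9 genes, 3 rose by this rule, against 1.8% of all genes tested, and 0 of the 9 fell, against 0.894%. FPKM is a level per transcript length, so levels of different genes can be set side by side, and the whole reads behind the values could be recovered, from 109 reads for Edn1 in its lowest library to 7959 for Vwf in its highest.

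The 8 libraries held 11350560 to 17897056 such reads each. NC replicate 2 stood apart in that 13 mitochondrial genes took 31.1% of its FPKM, against 16.3% to 21.9% in the other libraries. Skeletal muscle markers were very uneven among the runners, with a sum of 1092 to 37307 FPKM against 3481 to 7429 FPKM in the NC group, and the summed level of adipocyte markers was lower in every runner than in every control.

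**Figure D1:**
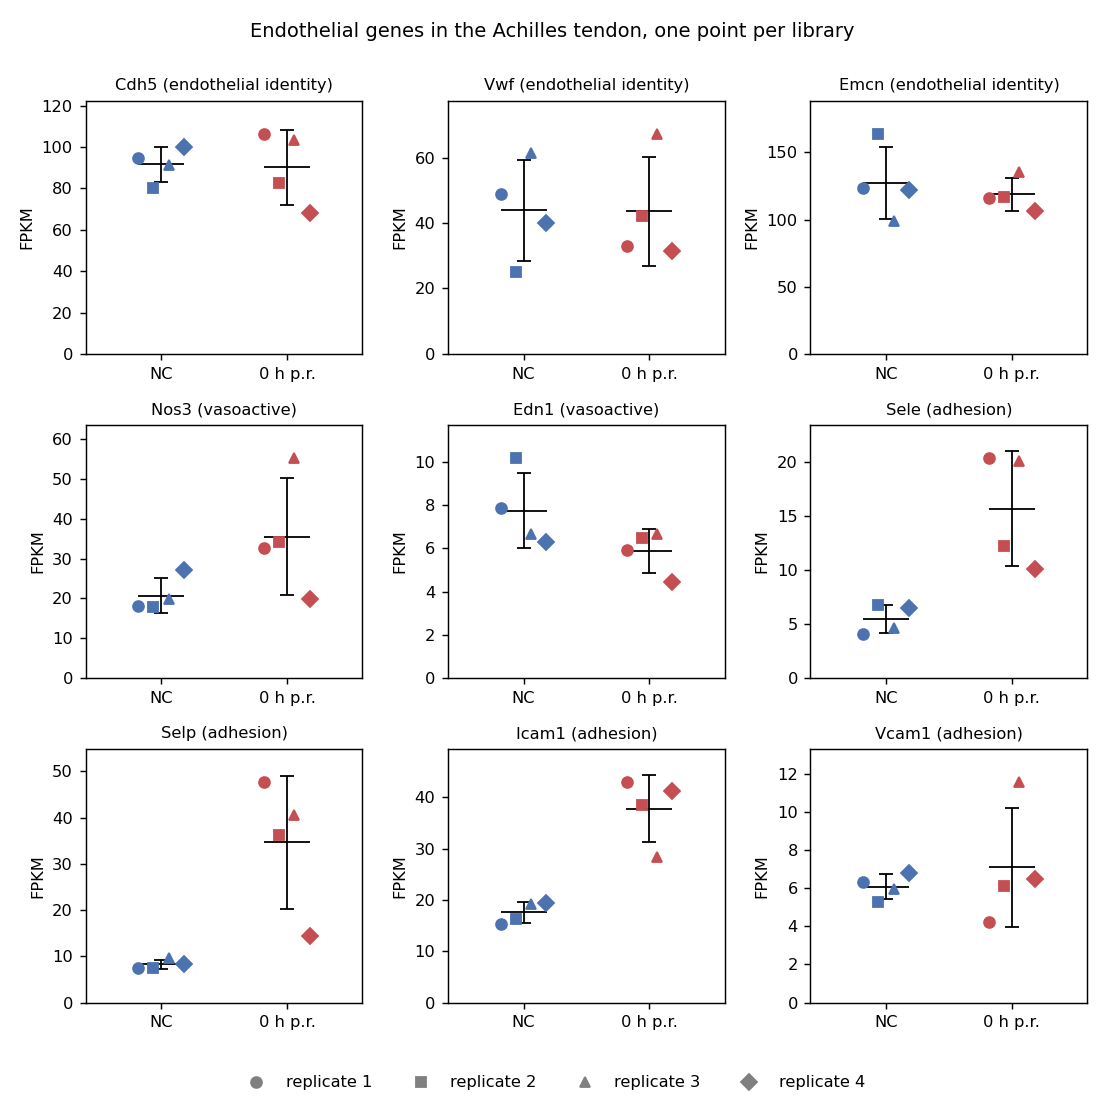
FPKM of each of the 9 endothelial genes (vertical axis, starting at 0) in the 4 NC libraries (blue) and the 4 libraries of the 0 h p.r. group (red), with the symbol giving the replicate number and the black bar and whiskers the mean and SD of 4. Cdh5, Vwf and Emcn lie at like levels in both groups, and Sele, Selp and Icam1 are the genes whose groups do not overlap.

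Cdh5, which encodes the cadherin of endothelial junctions, had an FPKM of 94.7, 80.0, 91.3 and 100.2 in NC replicates 1 to 4 and of 106, 82.4, 103 and 68.2 in the runners. The groups overlapped, and the runners held both the highest and the lowest value. The log2 difference between the groups was -0.04 (SE 0.16, 95% interval -0.41 to 0.33, adjusted p = 0.922, limma). Vwf, the multimer that carries factor VIII and tethers platelets, was the most uneven of the 3, at 49.0, 25.0, 61.4 and 39.9 FPKM in the controls and 33.1, 42.2, 67.3 and 31.5 FPKM in the runners. Its difference was -0.01 (SE 0.31, 95% interval -0.71 to 0.70, adjusted p = 0.994), so folds from 0.613 to 1.62 lie within the interval. Emcn, the sialomucin endomucin of capillary and venous endothelium, was the most abundant of the 9 genes, with 124, 164, 98.9 and 122 FPKM in the NC group and 116, 117, 135 and 107 FPKM after running. All 4 runners lay inside the range of the controls, and the difference was -0.08 (SE 0.16, 95% interval -0.45 to 0.29, adjusted p = 0.832). In this bulk tissue the number of endothelial cells and the RNA per endothelial cell cannot be told apart.

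The vasoactive genes gave smaller or less even differences. Nos3, the endothelial nitric oxide synthase that makes the vessel dilator nitric oxide, was at 18.0, 17.8, 19.8 and 27.2 FPKM in the controls and at 32.7, 34.1, 55.2 and 19.9 FPKM in the runners. The values of 3 of the 4 runners were above all the controls, and 0 h p.r. replicate 4 was within their range. The log2 difference was 0.69 (SE 0.28, 95% interval 0.06 to 1.32), with an unadjusted p of 0.0349 and an adjusted p of 0.183 by limma, so the gene did not pass. Its adjusted p came under the threshold without 0 h p.r. replicate 4 (log2 difference 0.94, adjusted p = 0.0412) and with the mean of other endothelial genes as a covariate (0.77, adjusted p = 0.0417), at less than 2-fold both times. On dropping 0 h p.r. replicate 3 it was at 0.45 (adjusted p = 0.365), and with adipocyte markers as a covariate at 0.03 (adjusted p = 0.992). Edn1, the precursor of the vessel constrictor endothelin-1, was at 7.85, 10.2, 6.67 and 6.28 FPKM in the controls and 5.90, 6.46, 6.68 and 4.46 FPKM in the runners. The values of 2 runners lay below every control, and the difference of -0.36 (SE 0.18, 95% interval -0.78 to 0.05) did not pass (adjusted p = 0.284, limma).

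Selp had the largest difference of the 9 genes and the 79th largest positive difference of all 13863. P-selectin was at 7.55, 7.52, 9.57 and 8.45 FPKM in the NC group and at 47.6, 36.3, 40.6 and 14.3 FPKM after running. In 3 runners the level was over 4 times the NC mean, and 0 h p.r. replicate 4 was lowest, at 1.73 times that mean but still above every control. The mean rose from 8.27 ± 0.967 to 34.7 ± 14.4 FPKM (SD, n = 4 each), a log2 difference of 1.88 (SE 0.33, 95% interval 1.14 to 2.62, adjusted p = 0.0152, limma). Leaving out NC replicate 1 raised the adjusted p to 0.0521, leaving out 0 h p.r. replicate 2 to 0.0569 and leaving out 0 h p.r. replicate 3 to 0.0519, each with a log2 difference of at least 1.77. Dropping 0 h p.r. replicate 4 instead gave a difference of 2.26. With adipocyte markers as a covariate the difference was 0.80 and the call was lost (adjusted p = 0.620, limma).

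Sele, the cytokine-inducible selectin of endothelium, was at 4.08, 6.75, 4.61 and 6.48 FPKM in the controls and 20.4, 12.3, 20.05 and 10.1 FPKM in the runners. All 4 runners were above all 4 controls, with replicates 1 and 3 nearly level with each other and replicates 2 and 4 lower. The mean went from 5.48 ± 1.33 to 15.7 ± 5.30 FPKM (SD, n = 4), a log2 difference of 1.40 (SE 0.26, 95% interval 0.82 to 1.99, adjusted p = 0.0187, limma). The call was lost without NC replicate 1 (adjusted p = 0.0618), NC replicate 3 (0.0563) or 0 h p.r. replicate 3 (0.0587), with log2 differences of 1.27 to 1.34. It was also lost with the replicate block (log2 difference 1.40, adjusted p = 0.0845) and with adipocyte markers as a covariate (0.53, adjusted p = 0.690).

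Icam1 rose least of the 3 in fold but was the most even. Its FPKM was 15.3, 16.4, 19.3 and 19.4 in the NC group and 42.9, 38.5, 28.4 and 41.3 in the runners. Here replicate 3 was the lowest runner and replicate 4 among the highest, unlike for the selectins. The mean rose from 17.6 ± 2.09 to 37.8 ± 6.52 FPKM (SD, n = 4), a log2 difference of 1.07 (SE 0.15, 95% interval 0.72 to 1.42, adjusted p = 0.00698, limma), and the call held in all 8 fits that left out 1 library. ICAM-1 is the ligand of the leukocyte integrins LFA-1 and Mac-1 and, unlike the selectins, is also made by fibroblasts and leukocytes. Because the estimate lies just above 2-fold, quantile scaling took it just below (log2 difference 0.99, adjusted p = 0.0114). The call was also lost with adipocyte markers as a covariate (0.90, adjusted p = 0.448).

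Vcam1, the ligand of integrin alpha4 beta1, did not pass. It was at 6.30, 5.27, 5.93 and 6.79 FPKM in the controls and at 4.20, 6.11, 11.5 and 6.48 FPKM in the runners. The runners held both the lowest value, in replicate 1, and the highest, in replicate 3, and the controls lay close together between them. The difference was 0.13 (SE 0.26, 95% interval -0.45 to 0.70, adjusted p = 0.830, limma), and on dropping 0 h p.r. replicate 3 it was -0.12. The interval stops below the log2 differences estimated for Sele, Selp and Icam1, but the difference between these genes was not itself tested.

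**Figure D2:**
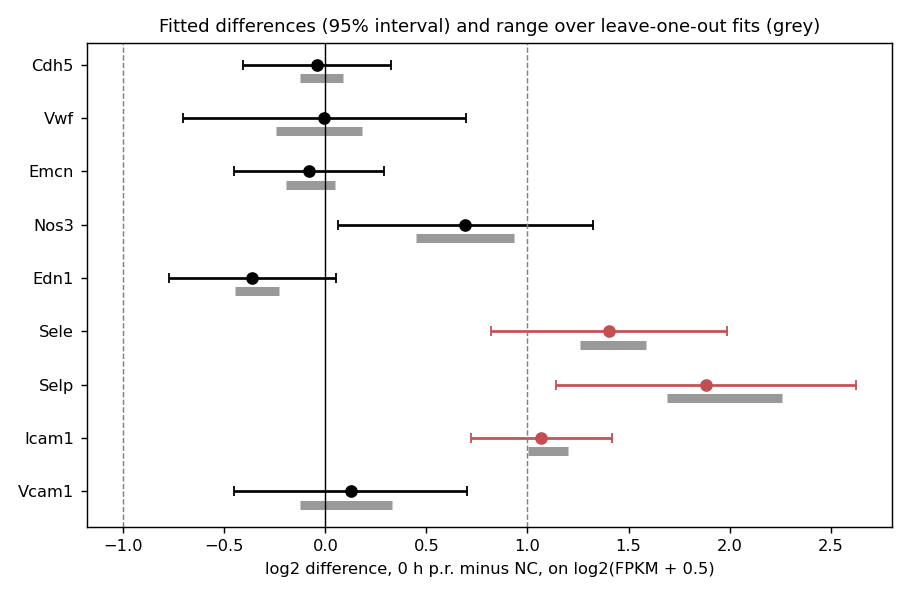
Fitted log2 difference of each gene, 0 h p.r. minus NC (horizontal axis), with its 95% interval, in red where the gene passed both thresholds, and in grey the range of the estimate over the 8 fits that each left out 1 library. Dashed lines mark a 2-fold change. The intervals of Sele, Selp and Icam1 lie to the right of 0, as does that of Nos3, which did not pass, and that of Cdh5 spans -0.41 to 0.33.

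As described, 3 of the 4 adhesion genes had groups that did not overlap, with the runners higher, as did 8.15% of all genes tested. None of the 9 genes had all its runners below all its controls, against 7.47%. The individual runners differed in which adhesion gene was most raised. Relative to the NC mean, 0 h p.r. replicate 1 held 5.76 times the Selp, 3.72 times the Sele and 2.44 times the Icam1 level. Replicate 2 held 4.39, 2.24 and 2.19 times those levels. In replicate 3 the factors were 4.90 for Selp, 3.66 for Sele and 1.61 for Icam1, and this library also had the highest Vcam1 (1.90 times), Nos3 (2.67 times), Vwf (1.54 times), Emcn (1.07 times) and Edn1 (0.863 times) of the runners. In replicate 4 they were 1.73, 1.84 and 2.34, and this library was the lowest runner in both selectins, in Cdh5 (0.745 times), Vwf (0.720 times) and Emcn (0.839 times) and in Nos3 (0.959 times) and Edn1 (0.576 times).

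**Figure D3:**
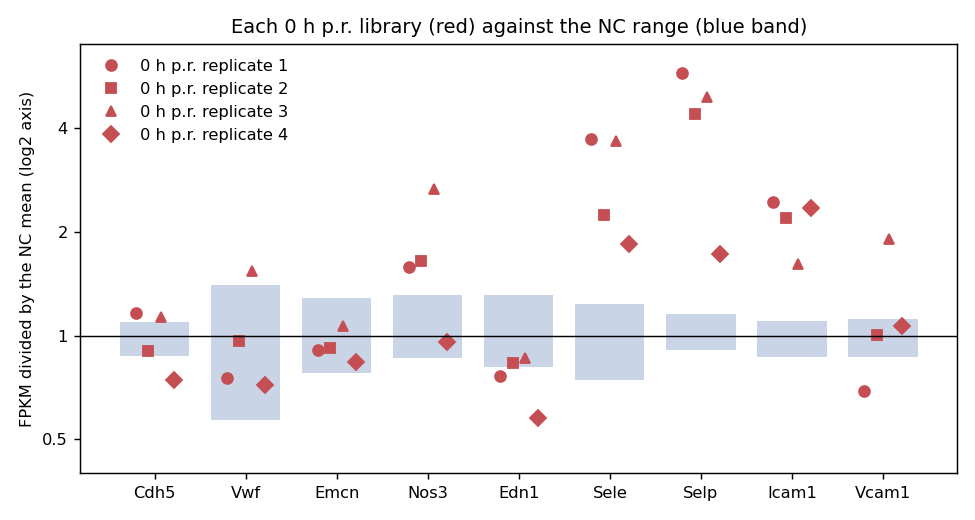
FPKM of each 0 h p.r. library divided by the NC mean of the gene (vertical axis, log2 scale), with the symbol giving the replicate and the blue band the range of the 4 NC libraries. All 4 runners lie above the band for Sele, Selp and Icam1, with replicate 4 lowest for both selectins and replicate 3 lowest for Icam1.

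The order of the 9 transcripts changed accordingly. In the NC group the order of mean FPKM was Emcn (127), Cdh5 (91.5), Vwf (43.8), Nos3 (20.7), Icam1 (17.6), Selp (8.27), Edn1 (7.74), Vcam1 (6.07) and Sele (5.48). Neighbours in that order overlapped in their library ranges, except Cdh5 over Vwf and Icam1 over Selp. After running the order was Emcn (119), Cdh5 (90.1), Vwf (43.5), Icam1 (37.8), Nos3 (35.4), Selp (34.7), Sele (15.7), Vcam1 (7.08) and Edn1 (5.88). Vwf, Icam1, Nos3 and Selp then lay at like levels and their ranges overlapped. Emcn and Cdh5 then just separated, the lowest Emcn value lying above the highest of Cdh5.

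Set against Cdh5 in the same library, which allows for how much endothelial junction RNA each tendon piece held, the groups separated, with the runners higher, in the same 3 genes and also in Nos3, that is in 4 of the 8 genes, against 7.24% of all 13862 genes divided by Cdh5 in this way. None of the 8 had its runners all lower on this scale, against 2.08%. Selp amounted to 7.97 to 10.5 FPKM per 100 FPKM of Cdh5 in the controls and to 21.0 to 44.7 in the runners. Sele amounted to 4.31 to 8.44 and to 14.8 to 19.4, a narrower range among the runners than its FPKM had. Icam1 amounted to 16.1 to 21.1 and to 27.4 to 60.5, the highest being replicate 4, in which Cdh5 was lowest. Nos3 relative to Cdh5 was at 19.0 to 27.2 in the controls and 29.1 to 53.4 in the runners. Vcam1 stayed at 6.50 to 6.78 in the controls and spread from 3.95 to 11.2 in the runners. With the mean of other endothelial genes as a covariate in limma, the log2 differences were 1.47 for Sele (adjusted p = 0.00314), 1.95 for Selp (0.00743) and 1.06 for Icam1 (0.00956). With adipocyte markers as the covariate they were 0.53 for Sele (adjusted p = 0.690), 0.80 for Selp (0.620) and 0.90 for Icam1 (0.448), and none of the 3 passed.

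**Figure D4:**
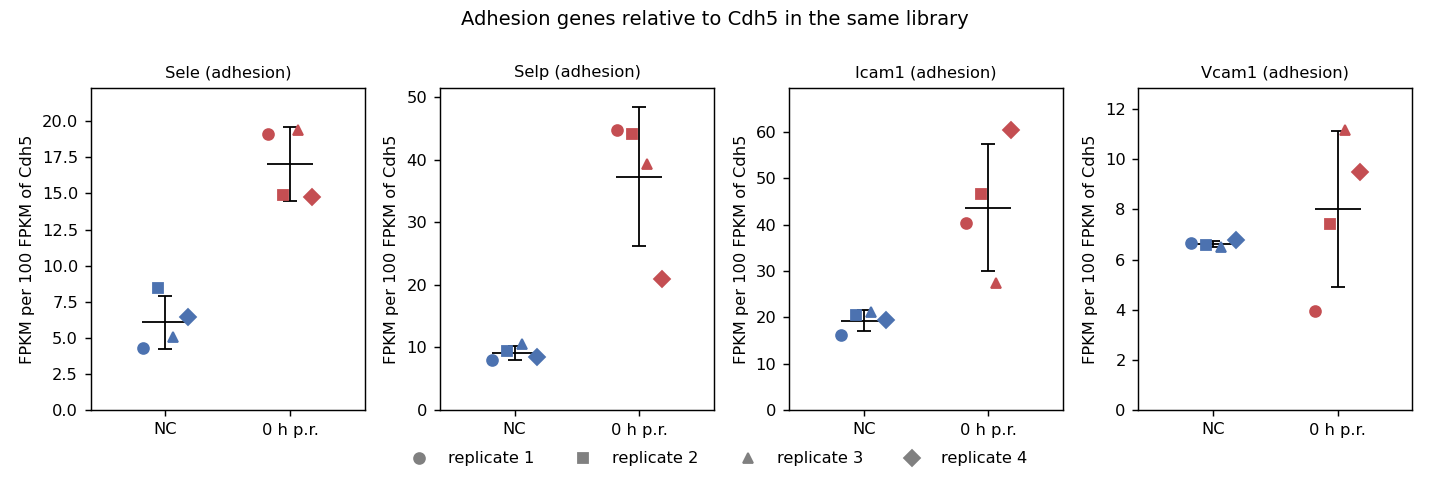
FPKM of the 4 adhesion genes per 100 FPKM of Cdh5 in the same library (vertical axis, starting at 0) in the NC (blue) and 0 h p.r. (red) groups, with mean and SD of 4 in black and the replicate number as the symbol. Sele, Selp and Icam1 do not overlap between the groups, as 7.24% of all genes do not with the runners higher on this scale, and Vcam1 spreads from 3.95 to 11.2 in the runners around the narrow range of the controls.

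The genes also varied together to different degrees. Over the 8 libraries the log2 levels of Sele and Selp had a Pearson r of 0.93, and after the mean of each group was taken out the r was 0.67. For Sele and Icam1 the values were 0.80 and -0.20, and for Selp and Icam1 0.82 and -0.14, so Icam1 did not follow the selectins from library to library within a group. Selp followed Cdh5 within the groups (r = 0.84), as did Nos3 (0.78) and Sele (0.67), and Emcn followed Edn1 (0.81). These are descriptions, chosen from 36 pairs, over 8 libraries that share the scaling of each library. The 5 genes with a pattern over the 8 libraries most like that of Cdh5 were Atp8a1 (r = 0.97), Vgll2 (0.97), Padi2 (0.96), Tppp2 (0.95) and Podxl (0.95). Of these Vgll2 encodes a transcription cofactor of skeletal muscle, and Podxl a sialomucin that endothelium also makes. Among the 4 runners Cdh5, Selp and Sele were in the same order of libraries as the summed skeletal muscle markers, which were at 37307 FPKM in replicate 1, 16911 in replicate 3, 6351 in replicate 2 and 1092 in replicate 4. None of these genes kept to the order of the muscle markers in the controls. There the markers were highest in NC replicate 2 (7429 FPKM), in which Cdh5 (80.0) and Selp (7.52) were lowest and Sele (6.75) was highest. The 5 genes most like Sele were Ogfrl1, Snrpb, Azi2, Gng5 and Hes2, with r from 0.97 to 0.98, and Selp came 83rd of all genes tested.

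Promoter sequence was looked at because NF-kB, a transcription factor that inflammatory cytokines activate, is known to drive the adhesion genes. RefSeq's promoter windows on the rat assembly GRCr8, a later build than the Rnor_6.0 used for the reads, held entries for 6 of the 10 genes: Emcn, Nos3, Edn1, Sele, Icam1 and Vcam1. The 250 bases before the annotated start were searched on both strands. The window of Sele lies wholly inside the gene, and those of Icam1, Emcn and Nos3 lie inside it for 157, 94 and 23 of their bases. The stretches below are the Vcam1 window, chr2:206742784-206743033 on the minus strand, and the 93 bases of the Icam1 window outside the gene, chr8:27829595-27829687 on the plus strand. They are shown as an adhesion gene that did not pass and one that rose, and capitals mark matches to the NF-kB consensus or to the shorter and partly overlapping form GGNNNTTCC.
Vcam1: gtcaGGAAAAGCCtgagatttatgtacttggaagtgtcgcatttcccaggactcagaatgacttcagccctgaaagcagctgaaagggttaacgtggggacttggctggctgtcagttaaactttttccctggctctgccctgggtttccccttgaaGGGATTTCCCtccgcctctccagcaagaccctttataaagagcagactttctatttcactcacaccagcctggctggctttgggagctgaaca
Icam1: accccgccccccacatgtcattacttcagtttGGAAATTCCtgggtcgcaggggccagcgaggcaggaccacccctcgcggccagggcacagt
The NF-kB consensus matched once among the 6 windows, in Vcam1 at 93 bases before the start (GGGATTTCCC), and 6.33% of all 33469 windows hold a match. GGNNNTTCC is in 15.4% of all windows and matched in Vcam1 and at 2 places in Icam1, 218 bases before the start (GGAAATTCC) and, inside the gene, at 149. TATAAA was found in Vcam1, in Edn1 and, inside the gene, in Icam1 (12.9% of all windows), the ETS form CAGGAAG in Emcn (10.2%), and neither TGANTCA (6.34%) nor TGACGTCA (1.59%) in any of the 6. A match is a stretch of letters and not a measured binding site.

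Of 24 other endothelial genes tested, 1 rose and 1 fell by both thresholds, against 1.8% and 0.894% of all genes tested, and their median log2 difference was -0.04, against -0.0014 for all genes tested. The gene that rose was Sox7, a SoxF transcription factor, from 7.92 ± 1.25 to 23.1 ± 7.17 FPKM (SD, n = 4; log2 difference 1.44, adjusted p = 0.00926, limma), and it passed in all 8 fits that left out 1 library. Sox7 did not pass with the replicate block (adjusted p = 0.0525) or with adipocyte markers as a covariate (0.523). Aplnr, the apelin receptor, fell from 22.6 ± 3.23 to 9.09 ± 3.10 FPKM (log2 difference -1.32, adjusted p = 0.0186), and was lost when NC replicate 3 (0.0516) or the runner of replicate 1 (0.0510) was dropped. None of 7 lymphatic endothelial genes passed (median -0.16, or -0.34 to -0.01 when 1 library was left out), with Pdpn at 0.36 and Prox1 at -0.31.

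**Figure D5:**
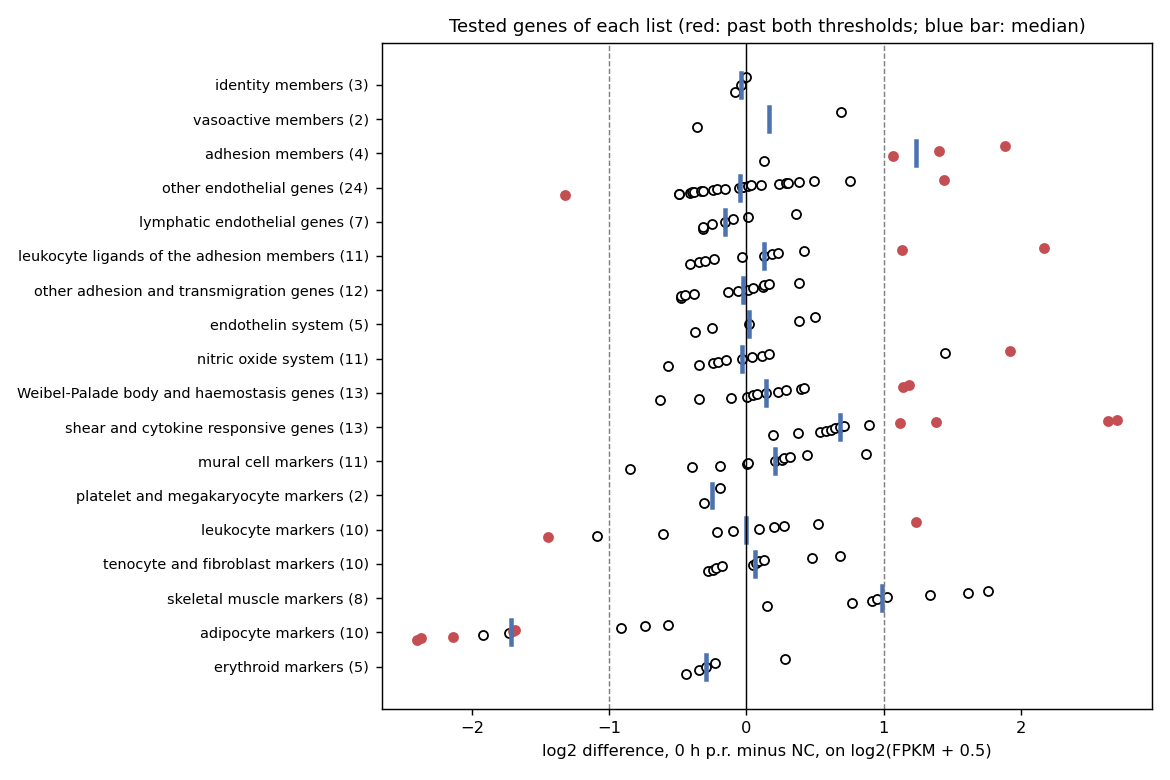
Log2 difference, 0 h p.r. minus NC (horizontal axis), of every tested gene in each list, with the number tested in parentheses, red where a gene passed both thresholds, a blue bar at the median of the list and dashed lines at a 2-fold change. The adhesion genes have a median of 1.24 and the shear and cytokine responsive genes one of 0.68, while the identity genes and the other endothelial genes have medians of -0.04.

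The counterparts on the leukocyte side were read next. Of 11 tested ligand genes of the selectins, ICAM-1 and VCAM-1, 2 rose, against 1.8% of all genes tested, and 0 fell, against 0.894% (median log2 difference 0.13, or -0.05 to 0.23 when 1 library was left out). Those 2 were Cd24, from 4.64 ± 2.08 to 23.1 ± 10.95 FPKM (2.17, adjusted p = 0.0162, limma), and Cd44, from 17.6 ± 2.36 to 39.5 ± 8.36 FPKM (1.13, adjusted p = 0.00817). Both are glycoproteins that many cell types besides leukocytes carry. Cd24 was lost without 0 h p.r. replicate 3 (0.0519), and Cd44 with the replicate block (0.0531). Selplg, the P-selectin ligand of leukocytes, was at 3.96 FPKM in the controls and 3.28 in the runners (adjusted p = 0.629), and Itgb2, the chain shared by LFA-1 and Mac-1, at 4.39 and 4.91 (adjusted p = 0.864). Of 10 leukocyte markers 1 rose, against 1.8% of all genes tested, and 1 fell, against 0.894% (median -0.0025, summed level 280.3 to 580.5 FPKM in the controls and 369 to 912 in the runners). S100a9 rose from 0.362 to 1.49 FPKM on 1 to 15 reads per library (adjusted p = 0.0192), and Mpo fell from 1.88 to 0.339 FPKM (adjusted p = 0.0146). S100a9 was lost on dropping NC replicate 3 or any of 0 h p.r. replicates 1, 2 and 3 (0.0553 to 0.0713) and Mpo without 0 h p.r. replicates 2 or 3 (0.0512 and 0.0513). Platelets, which also carry P-selectin, were represented by 4 measured markers of a list of 10, 2 of them tested, and the summed level of the 4 was 29.7 to 51.3 FPKM in the controls and 20.6 to 49.8 in the runners. Of these Pf4 was at 40.5 and 36.6 FPKM and Itga2b at 1.24 and 0.915, and Gp9 and Treml1 were below the filter.

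Of 12 tested genes for other adhesion and transmigration molecules, such as the junctional molecule F11r (log2 difference -0.47) and the adhesion amine oxidase Aoc3 (-0.48), none passed, and their median was -0.02. The endothelin system around Edn1 had 5 tested genes and none passed (median 0.02), the largest differences being those of the converting enzyme Ece2 (0.50) and the receptor Ednrb (0.39). In the nitric oxide system 1 of 11 genes rose, against 1.8% of all genes tested, and 0 fell, against 0.894% (median -0.03). When 1 library was left out 1 to 2 rose, and the median was -0.05 to 0.018. The gene that rose with all libraries was Gch1, which makes the cofactor of nitric oxide synthase, from 4.25 ± 0.751 to 17.6 ± 3.14 FPKM (log2 difference 1.92, adjusted p = 0.000886, limma), and it passed in all 8 fits that left out 1 library. Gch1 did not pass with adipocyte markers as a covariate (adjusted p = 0.126, limma).

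Among 13 tested Weibel-Palade body and haemostasis genes 2 rose, against 1.8% of all genes tested, and 0 fell, against 0.894% (median 0.14). When 1 library was left out 1 to 2 rose, and the median was 0.05 to 0.28. Plat, the tissue plasminogen activator that endothelium releases, rose from 41.3 ± 7.83 to 93.7 ± 9.64 FPKM (log2 difference 1.19, adjusted p = 0.00549, limma) and passed in all 8 fits that left out 1 library. With adipocyte markers as a covariate Plat did not pass (adjusted p = 0.381, limma). Procr, the endothelial protein C receptor, rose by 1.14 (adjusted p = 0.0431) and passed only without 0 h p.r. replicate 1 or 4, with an adjusted p of 0.0544 to 0.128 in the other 6.

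All 13 tested shear and cytokine responsive genes had estimates above 0, as did 6914 of all 13863 genes. Of the 13, 4 rose by both thresholds, against 1.8% of all genes, and 2 to 5 when 1 library was left out (median 0.68, against -0.0014 for all genes tested). Il1b, the cytokine interleukin-1 beta, which induces E-selectin and ICAM-1 in endothelium, went from 0.580 ± 0.258 to 6.26 ± 1.78 FPKM (log2 difference 2.64, adjusted p = 0.000886, limma), on 7 to 213 reads. Atf3, a stress-induced transcription factor, went from 10.1 ± 6.66 to 58.5 ± 11.99 FPKM (2.70, adjusted p = 0.0117). Both passed in all 8 fits that left out 1 library. Neither passed with adipocyte markers as a covariate (adjusted p = 0.0711 for Il1b and 0.437 for Atf3, limma). Klf4, a transcription factor that responds to laminar flow, rose by 1.38 (adjusted p = 0.0368) and was lost without NC replicates 1, 2 or 3 or 0 h p.r. replicates 1 or 2 (0.0716 to 0.113). Tnfaip3, a feedback inhibitor of NF-kB, rose by 1.12 (adjusted p = 0.0264) and passed only when replicate 4 of either group was dropped, at an adjusted p of 0.0477 to 0.0901 and a log2 difference of 0.98 to 1.21 otherwise. Many cell types of tendon make these transcripts, so their source was not resolved.

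Markers of the other cell types of a tendon piece were read in the same libraries. The tendon markers Tnmd (224 and 177 FPKM) and Fmod (983 and 1077 FPKM) were abundant in controls and runners. None of 11 mural cell markers passed both thresholds (median 0.21, Cnn1 at 0.87, Kcnj8 at -0.85), nor did any of 10 tenocyte and fibroblast markers (median 0.06, Dcn at 0.68, Scx at 0.48) or of 5 erythroid genes (median -0.29, Alas2 at -0.44, Hbb at -0.35). Leaving out 1 library gave medians of 0.03 to 0.26 for the mural list, with 0 to 1 markers falling. The tenocyte and fibroblast median was then -0.12 to 0.21 and the erythroid median -0.56 to -0.04. None of 8 skeletal muscle markers passed, though their median was 0.99 (Actn3 1.76, Pvalb 1.61). That median was 0.62 when NC replicate 1 was dropped, and 0.27, 0.61 and 1.96 when the runner of replicate 1, 3 or 4, respectively, was dropped. With the muscle list as a covariate the log2 differences were 1.18 for Sele, 1.58 for Selp and 1.08 for Icam1, and all 3 passed (adjusted p = 0.0106, 0.00446 and 0.0128, limma). Of 10 adipocyte markers 5 fell, against 0.894% of all genes tested, and 0 rose, against 1.8% (median -1.71), led by Cidec (-2.41), Lep (-2.37), Retn (-2.14) and Cfd (-1.70), and 1 to 6 fell when 1 library was left out. Retn passed in all 8 such fits, but not with the replicate block (adjusted p = 0.0527, limma). Lep, Cfd and Adipoq passed only when replicate 4 of either group was dropped (adjusted p = 0.0533 to 0.105 otherwise, limma), and Cidec was lost on dropping NC replicates 1 or 2 or 0 h p.r. replicates 2 or 3 (0.0591 to 0.0785). Their summed level was 1329 to 3434 FPKM in the controls and 383 to 1075 in the runners and did not overlap. With this list as a covariate 3 of all 13863 genes passed. The covariate, the mean log2 level of the list, was 5.90 to 7.19 in the controls and 3.93 to 5.62 in the runners. As it did not overlap between the groups, a fit with it can only poorly separate the list from running. In that fit Sele, Selp and Icam1 did not pass, as given above. Nor did any other gene named here as rising or falling by both thresholds (lowest adjusted p 0.0711, for Il1b, limma). Less adipose RNA and running cannot be told apart in these libraries.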

How the data were processed

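RNA was sequenced from 4 NC and 4 0 h p.r. Achilles tendons, and groups and replicate numbers were taken from the sample titles. The labels do not say outright that each library is a separate rat, so p-values measure the spread between these libraries. Per the study's methods and the submitters' processing notes, stranded polyadenylated RNA libraries were aligned to Rnor_6.0 with HISAT2 2.1.0 and counted with featureCounts 1.6.3, and the authors deposited FPKM values per gene and library. The table also holds fold changes and p-values of the authors' own DESeq2 1.30.1 comparison, which were not used here. Whole reads were recovered from the FPKM steps for 100% of the 15590 genes (tolerance 0.02 reads) and give the depth.

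FPKM values were tested as log2(FPKM + 0.5) with limma 3.58.1 (lmFit and eBayes with trend, R 4.3.3, Python 3.11.15) over the genes that reached 0.5 FPKM in 4 or more libraries, which left out 1727. A fold is therefore on the log2(FPKM + 0.5) scale and understates changes of low genes. P-values were two-sided and Benjamini-Hochberg adjusted over all tested genes, and a gene passed when its fold was 2 or more and its adjusted p below 0.05. The fit was tested on simulated data. The 10 genes and the gene lists were chosen with earlier results of these data known, and some list genes are not reported here. Named were all 10 genes, up to 4 passing genes of each other list or else the 2 with the largest difference, and the 5 genes most like Cdh5 and Sele, while Selplg, Itgb2, Gp9, Treml1, Tnmd, Fmod and Adipoq were named outside this rule after their values were seen. Alternatives were other pseudocounts, filters, scalings and thresholds, array weights, a replicate block, voom on the recovered reads, marker lists as covariates and each library left out.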

Additional observations from a re-analysis of the deposited data

How the results depend on the processing

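Over 23 alternatives the count of 374 genes past both thresholds was 195 to 516 when 1 library was left out, 212 with the replicate block, 793 at an adjusted p alone, 60 when tested against a fold of 1.5 and 3 with adipocyte markers as a covariate. The count of 3 endothelial genes was 1 to 3 when 1 library was left out, and 0 both against a fold of 1.5 (adjusted p 0.396 for Sele, 0.180 for Selp and 0.401 for Icam1) and with the adipocyte covariate. With the replicate block it was 2, Sele at a log2 difference of 1.40 (adjusted p 0.0845) being lost while Selp (0.0398) and Icam1 (0.0447) passed. The block also took Sox7 (0.0525), Cd44 (0.0531), S100a9 (0.0516), Klf4 (0.0774), Tnfaip3 (0.0911), Procr (0.101) and the 5 adipocyte markers (0.0527 to 0.115) above 0.05. Same-numbered libraries did not deviate together (r -0.14 to 0.07, other pairs -0.25 to 0.23, and 0 of 8 libraries correlated best with their own number), so the numbers were not taken to pair the rats. Sele, Selp and Icam1 kept their direction in all 23 alternatives. Some of these could not move an estimate. Other filters, protein-coding genes only, other thresholds and the balanced replicate block change only the p-values or the calls. In the 15 alternatives other than leaving out a library the log2 differences of Sele, Selp and Icam1 were 0.53 to 1.503, 0.80 to 1.98 and 0.90 to 1.09.

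The estimates near 0 changed sign, none of them passing. Emcn was at 0.053 with array weights. Vwf was at 0.025 with voom on the recovered reads, 0.018 with other endothelial genes as a covariate and 0.031 with adipocyte markers as a covariate. Leaving out 1 library gave ranges of -0.13 to 0.085 for Cdh5, -0.25 to 0.18 for Vwf, -0.19 to 0.048 for Emcn and -0.12 to 0.33 for Vcam1. Why these values moved was not tested. Among the 9 genes Edn1 had the fewest recovered reads, with 109 to 194 per library, and 4 libraries a group limit all the intervals.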
